A study of Homo sapiens with 9 samples.

Results

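The genes described here encode the subunits, activators and inhibitor of the proteasome, the protease complex that degrades ubiquitin-tagged proteins. They were taken as the symbols of the count table made of PSMA, PSMB, PSMC, PSMD, PSME or PSMF and a number, which gave 44 genes of 26485 symbols. RNA was sequenced from MV411, a line of MLL-rearranged human acute myeloid leukaemia cells, in 3 groups of 3 libraries each. The groups were cells in which a lysine of the transcription factor MYC is replaced by arginine (K148R, titled R14), cells in which it is replaced by glutamine (K148Q, titled Q2), and parental cells with wild-type MYC (titled WT). Arginine keeps the charge of lysine but cannot be acetylated, and glutamine is often used to mimic acetylated lysine. Cells of all 3 groups were untreated and grown in RPMI medium. How the substitutions were introduced and whether a group is 1 clone were not given in the sources used here. Whether the libraries of a group are of separate cultures was not given either. The p-values therefore measure the spread between these libraries, which may be technical. Each substitution came under 1 title code, so its effect cannot be told apart from other differences between the groups of cells.

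The proteasome is built from a barrel, the 20S core, and caps that feed it. The core stacks rings of alpha subunits (PSMA genes), which gate the entrance, and rings of beta subunits (PSMB genes), of which PSMB5, PSMB6 and PSMB7 carry the proteolytic sites. The 19S cap holds a ring of ATPases (PSMC genes) that unfold substrates and non-ATPase subunits (PSMD genes) that bind and remove ubiquitin. In blood cells and after interferon, the catalytic subunits can be replaced by PSMB8, PSMB9 and PSMB10, which form the immunoproteasome and change the peptides made for MHC class I, and the core can bind the 11S activator of PSME1 and PSME2 in place of the 19S cap.

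The libraries held 13747087 to 18938391 counts. Values are given as CPM on library sizes scaled by TMM, and genes were tested with the quasi-likelihood test of edgeR on all 9 libraries, with a Benjamini-Hochberg adjusted p under 0.05 taken as a call. The third K148Q library stood apart: the chi-square per degree of freedom between it and the other K148Q libraries was 17.8 and 18.3, against 1.35 between those 2. The K148R libraries were also more spread than the parental ones, at 3.03 to 5.22 against 1.55 to 1.62. Counts of calls below are also given without the third K148Q library where they differ. All 8 myeloid leukaemia markers searched were detected, with a summed level of 2461 to 2489 CPM in K148R, 1501 to 1635 CPM in K148Q and 1135 to 1141 CPM in parental libraries. LYZ, the lysozyme gene, set that order: the other 7 markers summed to 813 to 838 CPM in K148R, 1049 to 1069 CPM in K148Q and 975 to 979.6 CPM in parental libraries. In K148R against parental cells 5 of the 8 markers were called higher and 3 lower (62.5% and 37.5%, against 37.8% and 37.3% of all tested genes). In K148R and parental cells, the 5 averaged 1649 and 161 CPM (LYZ), 168 and 40.2 CPM (CSF1R), 159 and 98.2 CPM (CD33), 127 and 96.3 CPM (HOXA10), and 10.8 and 7.27 CPM (HOXA9). The 3 lower ones were FLT3 at -1.11, adjusted p = 1.31e-11, MEIS1 at -0.34, adjusted p = 0.000192 and MPO at -1.39, adjusted p = 1.14e-06. CD3E, MS4A1 and EPCAM, which define T cells, B cells and epithelium, were at 0 in all 9 libraries. MYC itself was at 382, 379 and 375 CPM in K148R, 489, 491 and 439 CPM in K148Q and 335, 329 and 336 CPM in parental libraries.

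Proteasome genes were lower in K148R cells as a group, and in K148Q cells the alpha ring was lower. Of the 20 PSMC and PSMD genes of the 19S cap and its chaperones, 13 were not called in K148Q against parental cells. The others were 2 higher and 5 lower (10% and 25%, against 27% and 26.3% of all tested genes). Without the third K148Q library, 5 of those 20 were called higher and 6 lower in K148Q against parental cells. In that fit 32.4% of all tested genes were called higher and 31.9% lower. The members together took 0.558% of counts in K148R, 0.687% in K148Q and 0.732% in parental libraries, which is 5721 ± 49.2, 6753 ± 201 and 7277 ± 71.7 CPM (SD, n = 3 each). The 3 groups did not overlap in this summed level. In these bulk libraries, fewer cells of a type and less RNA per cell cannot be told apart. PSMB11, the catalytic subunit of the thymus, had 0 counts in every library, which allows at most 0.163 to 0.217 CPM per library, counted as 3 counts. The other 43 members passed the filter on low counts and were tested.

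In K148R against parental cells, 31 of 43 members were called lower and 5 higher, with a median log2 fold change of -0.42. Of all 12845 tested genes, 75.1% were called in this comparison, 37.3% lower and 37.8% higher, with a median of -0.003. In K148Q against parental cells, 18 members were called lower and 3 higher, with a median of -0.058, where 53.3% of all genes were called, 26.3% lower and 27% higher, with a median of -0.007. In K148R against K148Q cells, 31 members were called lower and 5 higher, with a median of -0.314, and 71% of all genes were called, 34.5% lower and 36.6% higher, with a median of 0.017. Members called in either direction made up 83.7% of those tested in K148R against parental cells, 48.8% in K148Q against parental cells and 83.7% in K148R against K148Q cells, and in each comparison more members were called lower than higher. Both comparisons with parental cells use the same 3 parental libraries. Without the third K148Q library, 19 members were lower and 9 higher in K148Q against parental cells, 35 lower and 6 higher in K148R against parental cells, and 32 lower and 4 higher in K148R against K148Q cells. In that fit, the shares of all genes were 31.9% lower and 32.4% higher for K148Q against parental cells, 40% lower and 40.1% higher for K148R against parental cells, and 36.4% lower and 38% higher for K148R against K148Q cells. Leaving out K148R replicate 1 or 2 or parental replicate 1 or 3 left 3 members higher in K148R against parental cells.

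Changes of single members were modest beside those of other genes. The median size of the log2 fold change over the members was 0.457 in K148R against parental cells, 0.151 in K148Q against parental cells and 0.364 in K148R against K148Q cells, whereas over all tested genes it was 0.582, 0.304 and 0.51. Only PSMA8, PSMB9 and PSME2 changed by at least 2-fold in K148R against parental cells, 6.98% of the members, where 29.4% of all tested genes did. No member reached 2-fold in the other comparisons, where 12.3% of all genes did for K148Q against parental cells and 26.3% for K148R against K148Q cells.

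**Figure D1:**
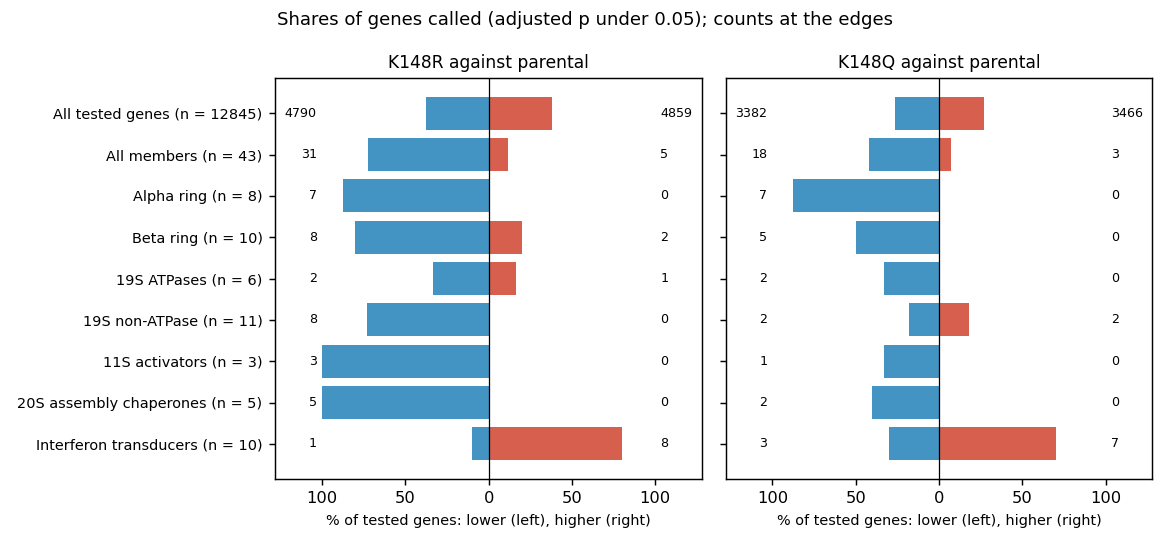
Shares of tested genes called lower (left, blue) and higher (right, red) for K148R against parental cells and K148Q against parental cells, with the counts at the edges, for all tested genes, all members, their subgroups, the 20S assembly chaperones and the interferon signal transducers. Of all tested genes about equal shares lie on either side, while 31 of 43 members lie on the lower side for K148R and 18 of 43 for K148Q.

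Set side by side, 16 members were called lower than in parental cells in both K148R and K148Q cells, which is 37.2% of the members, where 15.8% of all tested genes were called lower in both. These 2 comparisons share the parental libraries, and nothing is read from the overlap. The 16 were 7 of the 8 alpha subunits, PSMB1, PSMB2, PSMB7, PSMB9, PSMC6, PSMD10, PSMD13, PSMD14 and PSME2. Another 14 were called lower in K148R cells alone, 32.6% of the members against 16.7% of all tested genes, among them PSMB5, PSMC3, PSMD11, PSMD12, PSME1 and PSME4, and 3 were called higher in K148R cells alone, 6.98% against 15.4%, namely PSMB10, PSMC4 and PSMD9. PSMF1 was called higher in both, 2.33% of the members against 17.4% of all tested genes. Opposite calls were found for PSMB4, higher in K148R and lower in K148Q cells (2.33% against 5.02%). PSMD2 was called lower in K148R and higher in K148Q cells (2.33% against 4.77%). In K148Q cells alone, PSMC2 was called lower (2.33% against 5.49%) and PSMD3 higher (2.33% against 4.84%). PSMA7, PSMC1, PSMC5, PSMD6 and PSMD8 were called in neither comparison, 11.6% against 14.6%. Several of these classes changed without the third K148Q library. In that fit PSMB5, PSMB8, PSMC3, PSMC5 and PSMD8 were also called lower in K148R and higher in K148Q cells. PSMC2 and PSMD6 were then called lower in both, PSMB10 higher in both, and PSMA7 higher in K148R cells alone. Shares of all genes in these classes were not computed for that fit, so nothing is read from these counts. A call in 1 genotype alone does not show a difference between the 2 groups of libraries, which is tested by K148R against K148Q cells.

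**Figure D2:**
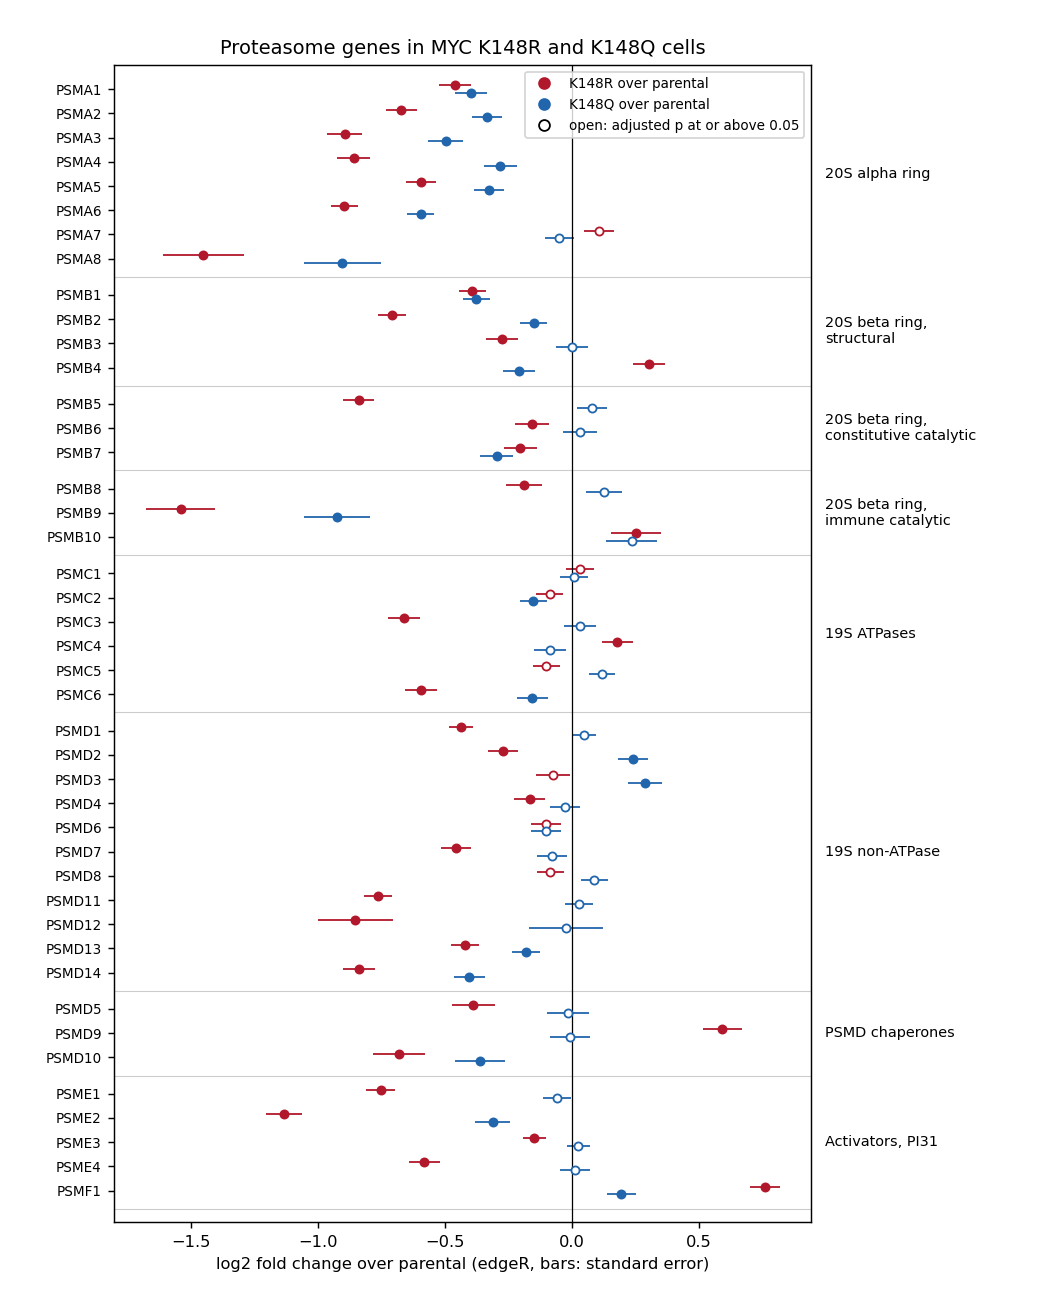
Log2 fold change over parental cells of the 43 tested members by subcomplex, for K148R (red) and K148Q (blue), with standard errors from edgeR and open points for members that were not called. The alpha subunits other than PSMA7 lie left of 0 for both genotypes, while most K148Q points of the 19S cap lie near 0.

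Of the alpha ring, 7 of 8 genes were called lower in K148R cells (87.5%, against 37.3% of all tested genes), with a median log2 fold change of -0.765. The same 7 were called lower in K148Q cells (87.5%, against 26.3%), with a median of -0.367. PSMA6, an alpha subunit of every 20S core, was at 166, 176 and 183 CPM in K148R, 210.3, 209 and 227 CPM in K148Q and 328, 326 and 323 CPM in parental libraries. All 3 groups were apart, with log2 fold changes of -0.90, SE 0.0542, adjusted p = 1.17e-09 for K148R against parental cells and -0.59, SE 0.0539, adjusted p = 4.38e-07 for K148Q against parental cells. For PSMA1 to PSMA5 the log2 fold changes were -0.89 to -0.46 in K148R cells and -0.50 to -0.28 in K148Q cells. Direct comparison put PSMA2 to PSMA6 lower in K148R than in K148Q cells, with log2 fold changes of -0.58 to -0.27, while PSMA1 was not called, at -0.06, adjusted p = 0.397. Exons of other GENCODE genes without a row of their own in the table cover PSMA6 over 63.9%, PSMA2 over 52.5% and PSMA1 over 35.7% of their exon lengths on the same strand, so their counts depend on how such reads were assigned.

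PSMA7 was the exception of the ring. It was at 283, 290.3 and 268 CPM in K148R, 266, 257 and 232 CPM in K148Q and 258, 258 and 266 CPM in parental libraries, so that the K148Q libraries overlapped the parental ones. It was not called against parental cells in either genotype, at 0.11, adjusted p = 0.108 for K148R and -0.05, adjusted p = 0.488 for K148Q. Without the third K148Q library, PSMA7 was called higher in K148R against parental cells, at 0.10, adjusted p = 0.0158. PSMA8, which takes the place of PSMA7 in the proteasome of developing sperm, was detected at low levels, at 5.39, 4.27 and 6.63 CPM in K148R, 6.58, 7.66 and 9.61 CPM in K148Q and 15.7, 13.9 and 15.0 CPM in parental libraries. Both substituted groups lay below every parental library, and the K148R and K148Q libraries overlapped each other. Log2 fold changes were -1.45, SE 0.160, adjusted p = 9.99e-07 for K148R against parental cells and -0.90, SE 0.153, adjusted p = 0.000196 for K148Q against parental cells. PSMA7 and PSMA8 are close paralogs, and how reads that match both were counted was not given in the sources used here, so the level of PSMA8 is uncertain.

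The structural beta subunits, which hold no proteolytic site, did not move as a block. PSMB1 was at 187, 183 and 199.8 CPM in K148R, 188, 199.9 and 188 CPM in K148Q and 253, 247 and 247 CPM in parental libraries. Both substituted groups were lower than parental cells, at -0.39, SE 0.0528, adjusted p = 8.44e-06 for K148R and -0.38, SE 0.0529, adjusted p = 3.64e-05 for K148Q, and overlapped each other. PSMB2 was at 124, 119 and 114 CPM in K148R, 181, 173 and 172 CPM in K148Q and 201, 192 and 190.1 CPM in parental libraries, lowest in K148R cells with no overlap between the groups, at -0.71, SE 0.0541, adjusted p = 1.65e-08 against parental cells. For K148Q against parental cells PSMB2 was at -0.15, SE 0.0535, adjusted p = 0.028. That call was lost with no filter on low counts, without K148Q replicate 2 or without any 1 of the 3 parental replicates, with adjusted p up to 0.123.

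PSMB4 moved in opposite directions in the 2 genotypes. It was at 258, 262 and 254 CPM in K148R, 182, 198 and 163 CPM in K148Q and 209.8, 210.5 and 208 CPM in parental libraries, with the K148R libraries above and the K148Q libraries below all parental ones. The log2 fold changes were 0.30, SE 0.0626, adjusted p = 0.000482 for K148R against parental cells, -0.21, SE 0.0631, adjusted p = 0.0118 for K148Q against parental cells and 0.51, SE 0.0629, adjusted p = 3.70e-06 for K148R against K148Q cells. PSMB3 was lower in K148R cells, at -0.28, adjusted p = 0.000953, and had the same mean of 174 CPM in K148Q and parental cells.

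Among the constitutive catalytic subunits, PSMB5 changed most in K148R against parental cells and PSMB7 in K148Q against parental cells. PSMB5, the chymotrypsin-like subunit and main target of bortezomib, was at 58.6, 59.1 and 59.3 CPM in K148R, 116, 115 and 103 CPM in K148Q and 106, 107 and 104 CPM in parental libraries. The 3 K148R libraries lay within 1 CPM of each other and below all others, with a log2 fold change of -0.84, SE 0.0619, adjusted p = 1.10e-08 against parental cells and -0.92, SE 0.0619, adjusted p = 4.92e-09 against K148Q cells. K148Q and parental libraries overlapped, at 0.08, adjusted p = 0.296, and without the third K148Q library PSMB5 was called slightly higher in K148Q cells, at 0.14, adjusted p = 0.0132.

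The caspase-like subunit PSMB6 was at 92.0, 86.1 and 87.8 CPM in K148R, 106, 106 and 91.7 CPM in K148Q and 101, 97.3 and 98.4 CPM in parental libraries. Its K148R libraries lay below the parental ones by a small margin, at -0.16, SE 0.0662, adjusted p = 0.0413. This call was lost without K148R replicate 2 or 3 or without any 1 of the parental replicates, with adjusted p up to 0.12. RLE scaling and DESeq2 also lost it. For K148Q against parental cells PSMB6 was at 0.03, adjusted p = 0.723, with overlapping libraries. The trypsin-like subunit PSMB7 was at 104, 113 and 114 CPM in K148R, 99.8, 112 and 98.3 CPM in K148Q and 131, 124 and 126 CPM in parental libraries. Both substituted groups were below the parental libraries, at -0.20, SE 0.0647, adjusted p = 0.0106 for K148R and -0.30, SE 0.0650, adjusted p = 0.00145 for K148Q, and overlapped each other. The K148R call was lost without K148R replicate 1, at an adjusted p of 0.0597.

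**Figure D3:**
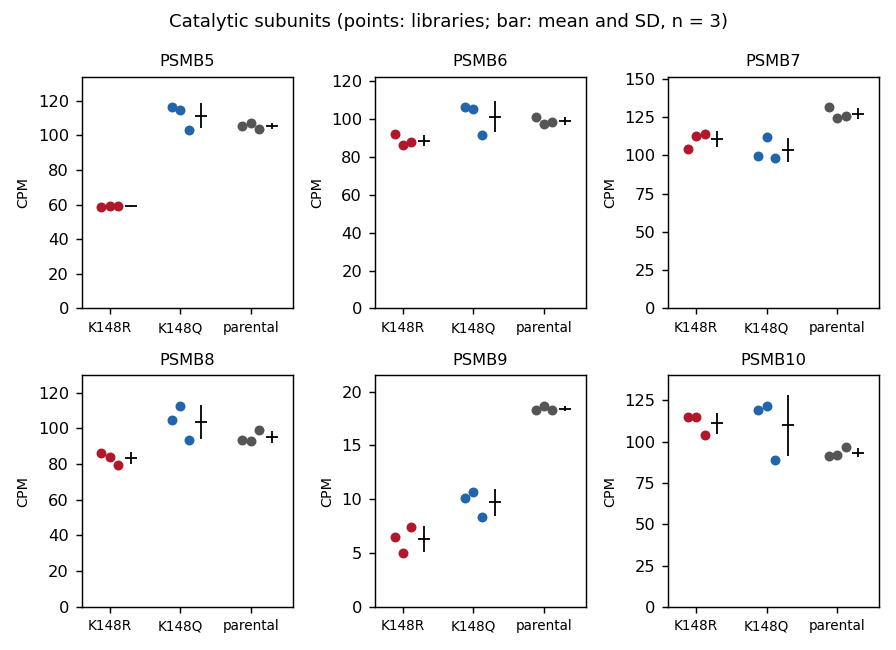
Level in CPM of the constitutive (upper row) and immune (lower row) catalytic subunits in each library of K148R, K148Q and parental cells, with the mean and SD of each group. PSMB5 is low in the 3 K148R libraries and PSMB9 is low in all 6 libraries with a substitution, whereas PSMB8 and PSMB10 stay between 79.4 and 122 CPM.

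The immune catalytic subunits did not move together: PSMB9 fell in both genotypes, while PSMB8 and PSMB10 changed little. PSMB9 (chromosome 6, 32844136 to 32859585, + strand, GRCh38, GENCODE v29) replaces PSMB6 and was at 6.48, 5.02 and 7.43 CPM in K148R, 10.1, 10.7 and 8.31 CPM in K148Q and 18.3, 18.7 and 18.3 CPM in parental libraries. The 3 groups did not overlap, and the log2 fold changes were -1.54, SE 0.136, adjusted p = 8.72e-08 for K148R against parental cells, -0.93, SE 0.130, adjusted p = 3.68e-05 for K148Q against parental cells and -0.61, SE 0.144, adjusted p = 0.0015 for K148R against K148Q cells. In K148R against parental cells this was the largest fall among the 43 tested members.

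PSMB8 (chromosome 6, 32840717 to 32844703, - strand), which replaces PSMB5, was at 86.4, 84.2 and 79.4 CPM in K148R, 105, 113 and 93.7 CPM in K148Q and 93.3, 92.7 and 98.8 CPM in parental libraries. The K148R libraries were just below the parental ones, at -0.19, SE 0.0712, adjusted p = 0.0269, a call that was lost without K148R replicate 2 or 3 or parental replicate 3, with adjusted p up to 0.104. K148Q libraries overlapped the parental ones, at 0.13, adjusted p = 0.149, and without the third K148Q library PSMB8 was called higher, at 0.20, adjusted p = 0.00133. PSMB10 (chromosome 16, 67934502 to 67937087, - strand), which replaces PSMB7, was at 115, 115 and 104 CPM in K148R, 119, 122 and 88.6 CPM in K148Q and 91.6, 92.0 and 96.5 CPM in parental libraries. It was higher in K148R than in parental cells, at 0.25, SE 0.0989, adjusted p = 0.0329. This call was lost with library totals, without K148R replicate 1 or 2 or without any 1 of the parental replicates, with adjusted p up to 0.0996. In K148Q cells the first and second libraries lay above the parental range and the third below it. PSMB10 was there at 0.23, adjusted p = 0.0618 with all 3 and 0.38, adjusted p = 1.13e-07 without the third. Library totals, DESeq2 and a replicate block also called it higher in K148Q cells.

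Overlapping transcripts limit these 3 values. Over 30.7% of its exon length, PSMB10 shares exons on the same strand with a GENCODE gene that has no row of its own in the table. Exons of PSMB8-AS1 cover 15.1% of the exon length of PSMB9 on the same strand and 8.65% of PSMB8 on the other strand, and whether the authors counted by strand was not given in the sources used here. PSMB8-AS1 was at 16.5 ± 1.48 CPM in K148R cells, 15.1 ± 0.789 CPM in K148Q cells and 19.6 ± 1.17 CPM in parental cells (SD, n = 3 each), lower in K148R and K148Q than in parental cells, at -0.25, adjusted p = 0.0323 and -0.38, adjusted p = 0.0053. Its part in the fall of PSMB9 was not tested.

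Promoter windows of the interferon-inducible members are shown because the immune subunits and the 11S activator are textbook interferon targets and yet moved apart here. Each is a RefSeq window on GRCh38.p14 of 250 bases before and 50 bases from the annotated start, 5′ to 3′ on the strand of the gene. Capitals mark matches to an interferon-response type motif, GAAA repeated after any 2 bases, or to TTCNNNGAA, a GAS-type motif bound by STAT dimers, on either strand. The windows lie at chr6:32853942-32854241, + strand (PSMB9), chr6:32843998-32844297, - strand (PSMB8, the more downstream of its 2 starts), chr16:67936801-67937100, - strand (PSMB10), chr14:24135944-24136243, + strand (PSME1) and chr14:24146561-24146860, - strand (PSME2).
PSMB9: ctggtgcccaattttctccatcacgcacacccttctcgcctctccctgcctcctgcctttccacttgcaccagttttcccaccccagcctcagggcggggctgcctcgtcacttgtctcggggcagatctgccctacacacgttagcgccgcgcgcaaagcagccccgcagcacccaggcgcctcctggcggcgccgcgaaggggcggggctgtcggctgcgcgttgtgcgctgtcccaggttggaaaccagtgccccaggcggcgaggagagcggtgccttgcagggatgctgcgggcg
PSMB8: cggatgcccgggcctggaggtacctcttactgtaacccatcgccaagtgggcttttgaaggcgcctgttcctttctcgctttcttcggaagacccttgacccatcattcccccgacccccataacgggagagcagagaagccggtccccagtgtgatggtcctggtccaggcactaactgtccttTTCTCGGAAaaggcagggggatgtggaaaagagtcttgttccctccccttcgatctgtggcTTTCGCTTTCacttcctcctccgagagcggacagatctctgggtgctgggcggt
PSMB10: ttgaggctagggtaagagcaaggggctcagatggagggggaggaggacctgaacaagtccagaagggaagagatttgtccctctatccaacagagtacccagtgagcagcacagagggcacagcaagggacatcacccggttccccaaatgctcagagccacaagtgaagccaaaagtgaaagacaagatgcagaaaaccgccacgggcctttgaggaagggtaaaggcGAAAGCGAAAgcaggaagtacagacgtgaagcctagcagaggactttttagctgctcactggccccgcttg
PSME1: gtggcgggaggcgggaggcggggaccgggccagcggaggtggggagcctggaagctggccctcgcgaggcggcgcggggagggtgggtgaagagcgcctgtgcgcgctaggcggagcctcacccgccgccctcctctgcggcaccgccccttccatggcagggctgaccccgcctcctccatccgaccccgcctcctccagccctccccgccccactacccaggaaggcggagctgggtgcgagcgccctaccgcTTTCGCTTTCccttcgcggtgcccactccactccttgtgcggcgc
PSME2: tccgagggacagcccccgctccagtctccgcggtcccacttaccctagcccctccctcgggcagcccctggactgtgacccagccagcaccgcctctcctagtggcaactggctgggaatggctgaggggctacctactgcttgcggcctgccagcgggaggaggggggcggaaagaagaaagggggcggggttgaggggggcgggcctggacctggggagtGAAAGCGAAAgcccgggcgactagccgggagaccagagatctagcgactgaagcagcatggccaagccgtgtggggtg
The interferon-response type match lies at base -21 from the start in PSMB10, -4 in PSMB8, 6 in PSME1 and -28 in PSME2, and the PSMB8 window also holds a GAS-type match at -65. No letters of either motif were found in the PSMB9 window, nor in the other PSMB8 window. These matches are descriptions of letters and not of binding.

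Over the 39 members with a RefSeq window, 6 held an interferon-response type match, 15.4%, against 4.38% of 27305 genes. They were PSMA4, PSMB4, PSMB8, PSMB10, PSME1 and PSME2. GAS-type matches were found for 8 members, 20.5% against 9.38% of all genes, and matches to TGACNNNGC, an antioxidant-response type motif like that bound by NRF1, for 13, 33.3% against 16.1%. CACGTG, the E-box bound by MYC and its partner MAX, was found for 3 members, PSMB3, PSMD9 and PSME3, 7.69% against 8.77% of all genes. CCAAT was found for 19, 48.7% against 39.7%. Both strands were searched, and matches of different motifs could overlap. The 6 members with the interferon-response type match include some that were called higher in K148R cells (PSMB4, PSMB10) and some called lower (PSMA4, PSMB8, PSME1, PSME2).

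To set immune against constitutive subunits, levels were divided by exon length and summed. The immune genes made up 37.4 ± 1.28% of the summed catalytic level per length in K148R cells, 35.9 ± 1.66% in K148Q cells and 33.4 ± 0.901% in parental cells (SD, n = 3 each). The log2 ratio of immune to constitutive was higher by 0.252 in K148R than in parental cells (exact permutation test, two-sided, p = 0.1, the smallest that 3 against 3 libraries can give) and by 0.163 in K148Q than in parental cells (exact p = 0.2). Adjusted over the 18 ratios tested, these were 0.129 and 0.24. With 3 against 3 libraries no ratio could pass the threshold of 0.05, whatever its size, so nothing is read from this. Pair by pair the ratios went different ways. For PSMB9 to PSMB6 the difference in log2 ratio from parental cells was -1.41 in K148R and -0.96 in K148Q cells. PSMB8 to PSMB5 was higher by 0.651 in K148R cells, where PSMB5 fell, and by 0.048 in K148Q cells. PSMB10 to PSMB7 was higher by 0.454 in K148R and by 0.52 in K148Q cells. The exact p was 0.5 for PSMB8 to PSMB5 in K148Q cells and 0.1 for each of the other 5 pair ratios against parental cells.

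Among the activators, both 11S genes fell in K148R cells. PSME2, the beta subunit of the interferon-inducible 11S activator, was at 113, 114 and 116 CPM in K148R, 216, 213 and 176 CPM in K148Q and 255, 252 and 244 CPM in parental libraries. The groups did not overlap, at -1.13, SE 0.0707, adjusted p = 1.69e-09 for K148R and -0.31, SE 0.0693, adjusted p = 0.00165 for K148Q against parental cells. PSME1, its alpha subunit, was at 113, 119 and 107 CPM in K148R, 187, 187 and 175 CPM in K148Q and 194, 188 and 189 CPM in parental libraries. It was lower in K148R than in parental cells, at -0.75, SE 0.0559, adjusted p = 1.19e-08, and than in K148Q cells, at -0.69, adjusted p = 3.71e-08, whereas K148Q against parental cells was at -0.06, adjusted p = 0.394, with all K148Q libraries below the parental ones.

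PSME3, whose protein forms a nuclear activator ring on its own, was at 261, 267 and 268 CPM in K148R, 307, 299.7 and 292 CPM in K148Q and 298, 296 and 289.5 CPM in parental libraries. It was lower in K148R cells by a small amount, at -0.15, SE 0.0462, adjusted p = 0.00922, and at 0.02, adjusted p = 0.679 in K148Q against parental cells, with overlapping libraries. Against PSME3 within each library, the log2 ratio of PSME2 differed from that in parental cells by -0.98 in K148R and -0.34 in K148Q cells, and that of PSME1 by -0.605 in K148R and -0.083 in K148Q cells (exact permutation test, two-sided, p = 0.1 each, adjusted p = 0.129). PSME4, the PA200 activator found on proteasomes of the nucleus, was at 76.5, 77.3 and 82.8 CPM in K148R, 114, 119 and 123 CPM in K148Q and 120.3, 122 and 112 CPM in parental libraries. The K148R libraries lay below all others, at -0.58, SE 0.0611, adjusted p = 5.92e-07, and K148Q and parental libraries overlapped, at 0.01, adjusted p = 0.889.

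PSMF1, which encodes PI31, a protein that inhibits the 20S core in vitro, was the member that rose most in K148R against parental cells. It was at 163, 162 and 152 CPM in K148R, 114, 106 and 103 CPM in K148Q and 96.0, 94.4 and 91.9 CPM in parental libraries. The 3 groups did not overlap, with log2 fold changes of 0.76, SE 0.0584, adjusted p = 1.82e-08 for K148R against parental cells and 0.56, SE 0.0581, adjusted p = 5.65e-07 for K148R against K148Q cells. For K148Q against parental cells it was at 0.19, SE 0.0588, adjusted p = 0.0125, a call lost without K148Q replicate 1 or parental replicate 3, with adjusted p up to 0.0675.

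**Figure D4:**
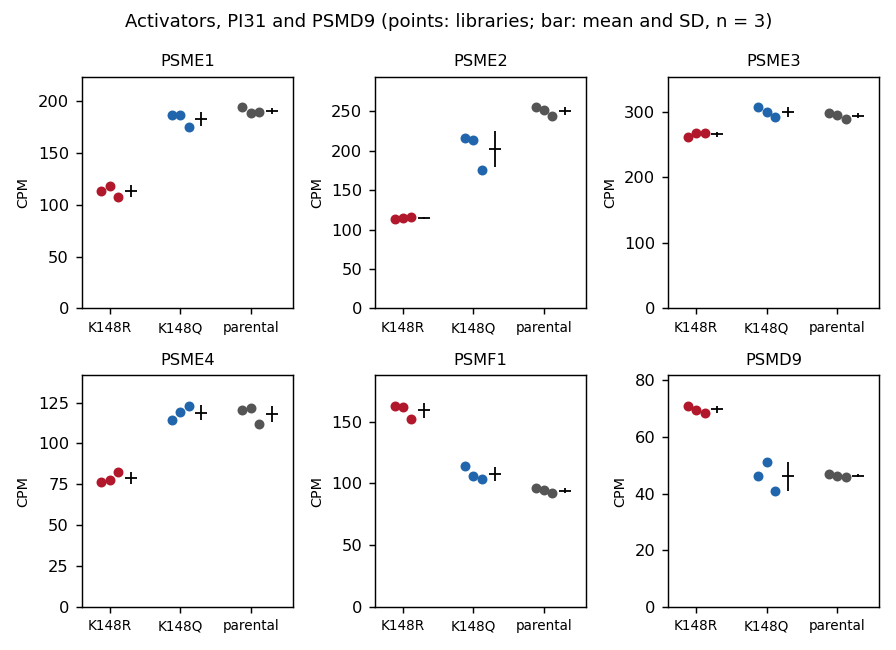
Level in CPM of the 11S activators PSME1, PSME2 and PSME3, of PSME4, of PSMF1 and of the 19S chaperone gene PSMD9 in each library of K148R, K148Q and parental cells, with the mean and SD of each group. PSME1, PSME2 and PSME4 are lowest and PSMF1 and PSMD9 highest in the 3 K148R libraries.

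Of the ATPases of the 19S cap, 2 of 6 were called lower and 1 higher in K148R against parental cells (33.3% and 16.7%, against 37.3% and 37.8% of all tested genes). In K148Q against parental cells 2 were called lower (33.3%, against 26.3%), so that the shares called lower were near those of all genes. When the third K148Q library was left out, 4 were lower and 1 higher in K148R cells, and 2 lower and 2 higher in K148Q cells. PSMC3 was at 146, 142 and 134 CPM in K148R, 233, 244 and 207 CPM in K148Q and 224, 225 and 220.0 CPM in parental libraries, below all others in K148R cells at -0.66, SE 0.0630, adjusted p = 2.01e-07 and with overlapping K148Q and parental libraries at 0.03, adjusted p = 0.69. Without that library PSMC3 was called higher in K148Q cells, at 0.11, adjusted p = 0.0306. PSMC6 was at 74.0, 77.9 and 77.9 CPM in K148R, 97.6, 102 and 112 CPM in K148Q and 117, 118 and 112 CPM in parental libraries. It was lower in K148R cells, at -0.59, SE 0.0631, adjusted p = 6.49e-07. For K148Q against parental cells, PSMC6 was at -0.16, SE 0.0624, adjusted p = 0.0481. That call was kept without K148Q replicate 3 and lost without any 1 of the other libraries. It was also lost with RLE scaling, library totals, no filter, DESeq2 and the fit of 2 groups. In all, 6 of 19 settings kept it, with adjusted p up to 0.206. PSMC4 was higher in K148R cells, with 181 ± 8.59 CPM in K148R cells, 150.3 ± 10.9 CPM in K148Q cells and 159.7 ± 2.72 CPM in parental cells and a log2 fold change of 0.18, adjusted p = 0.0169, a call lost without K148R replicate 1 or 2 or parental replicate 1 or 3, with adjusted p up to 0.0731. PSMC1, PSMC2 and PSMC5 were not called in K148R against parental cells, at -0.10 to 0.03. Of the exon length of PSMC1, 82.1% overlaps NRDE2 on the other strand, so its counts may be shared with that gene. Opposite-strand exons of other genes also overlap PSMD7 over 42.4%, PSMC5 over 16.2% and PSMD13 over 10.4% of their exon lengths.

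Of the 11 non-ATPase subunits, 8 were called lower (72.7%, against 37.3% of all tested genes) and none higher in K148R against parental cells, with a median log2 fold change of -0.42. In K148Q against parental cells 2 were called lower and 2 higher (18.2% each, against 26.3% and 27%), with a median of -0.024. With the third K148Q library left out, 10 were lower in K148R against parental cells, and in K148Q against parental cells 3 were lower and 3 higher. PSMD14, the deubiquitinase that cuts ubiquitin chains off substrates, was at 82.9, 82.0 and 95.3 CPM in K148R, 116, 117 and 118 CPM in K148Q and 155, 155 and 155 CPM in parental libraries. The groups did not overlap, at -0.84, SE 0.0627, adjusted p = 1.31e-08 for K148R and -0.40, SE 0.0621, adjusted p = 7.95e-05 for K148Q against parental cells. PSMD12, a scaffold subunit of the lid, was at 41.2, 44.8 and 57.4 CPM in K148R, 73.7, 74.8 and 106 CPM in K148Q and 83.6, 90.7 and 84.4 CPM in parental libraries. The third K148Q library stood above the other 2, and only the K148R libraries were called against parental cells, at -0.85, SE 0.149, adjusted p = 0.000294, with K148Q at -0.02, adjusted p = 0.902. PSMD11, another lid subunit, fell by a like amount, with 79.6 ± 1.25 CPM in K148R cells, 138 ± 6.27 CPM in K148Q cells and 135 ± 2.70 CPM in parental cells and -0.76, SE 0.0562, adjusted p = 1.06e-08 for K148R against parental cells.

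PSMD2 and PSMD3 were the members called higher in K148Q cells besides PSMF1. PSMD2, a large subunit of the base and a docking site for ubiquitin-like domains, was at 246, 240.4 and 232 CPM in K148R, 359.5, 359 and 308 CPM in K148Q and 291, 290.1 and 287 CPM in parental libraries. Its log2 fold changes were -0.27, SE 0.0605, adjusted p = 0.000876 for K148R against parental cells and 0.24, SE 0.0602, adjusted p = 0.00384 for K148Q against parental cells, and the direct comparison of K148R with K148Q cells gave -0.51, SE 0.0605, adjusted p = 2.46e-06. PSMD3 was at 156, 152 and 149 CPM in K148R, 207, 208 and 174 CPM in K148Q and 159, 164 and 158 CPM in parental libraries, at 0.29, SE 0.0668, adjusted p = 0.00224 for K148Q against parental cells and -0.08, adjusted p = 0.316 for K148R against parental cells.

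PSMD5, PSMD9 and PSMD10 carry PSMD names but encode chaperones that help to build the base and leave it. PSMD9 was at 71.1, 69.6 and 68.6 CPM in K148R, 46.3, 51.1 and 41.0 CPM in K148Q and 46.8, 46.3 and 45.9 CPM in parental libraries, higher in all 3 K148R libraries at 0.59, SE 0.0772, adjusted p = 6.15e-06 and at -0.01, adjusted p = 0.942 in K148Q against parental cells. Its last exons overlap those of WDR66 on the same strand over 15.7% of its exon length. PSMD10, also called gankyrin, was at 28.8, 27.7 and 27.6 CPM in K148R, 31.9, 31.5 and 41.2 CPM in K148Q and 42.6, 48.5 and 43.6 CPM in parental libraries. It was lower in K148R cells, at -0.68, SE 0.101, adjusted p = 2.26e-05, and in K148Q cells, at -0.36, SE 0.0999, adjusted p = 0.00714. PSMD5 was lower in K148R cells, at -0.39, adjusted p = 0.000673, and was not called in K148Q cells, at -0.02, adjusted p = 0.88.

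Per kilobase of exon the order of the members differed between the groups. In K148R cells PSMB4 was highest, at 268 ± 4.03 CPM per kb, ahead of PSMB1 at 204 ± 9.49. In parental cells PSMB1 was highest, at 268 ± 3.80 CPM per kb, followed by PSMA6 at 226 ± 1.48 and PSMB3 at 225 ± 1.54, which lay within their spread of each other (SD, n = 3 each). In K148Q cells PSMB3, at 225 ± 16.8 CPM per kb, and PSMB1, at 207 ± 7.40, were the highest 2, and their libraries overlapped, at 206 to 238 for PSMB3 and 202 to 215 for PSMB1. PSMA8 was the lowest of the 43 detected members in each group, at 2.93 ± 0.636 CPM per kb in K148R, 4.29 ± 0.828 in K148Q and 8.03 ± 0.503 in parental cells, and PSMB9 was the next lowest in K148R and K148Q cells. Exon lengths were taken from GENCODE v29, which may differ from the annotation the authors counted with. For 12 members GENCODE names 32 processed or other pseudogenes, none with a row of its own in the table, and reads that match both could not be told apart, which holds above all for PSMC1 with 13.

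The chaperones that assemble the 20S core fell with it in K148R cells. All 5 were called lower in K148R against parental cells, where 37.3% of all tested genes were, with a median log2 fold change of -0.778. In K148Q against parental cells 2 of 5 were called lower (40%, against 26.3%), with a median of -0.2. POMP, which holds the beta subunits until the half-barrels join, averaged 84.4 ± 8.35 CPM in K148R cells, 90.7 ± 13.3 CPM in K148Q cells and 145 ± 4.72 CPM in parental cells (SD, n = 3 each). Log2 fold changes of POMP were -0.78, adjusted p = 2.77e-06 for K148R and -0.67, adjusted p = 3.34e-05 for K148Q against parental cells. PSMG1 and PSMG3, parts of the dimers that order the alpha ring, were lower in K148R cells, at -1.28, adjusted p = 4.32e-08 and -1.11, adjusted p = 3.63e-08. In K148Q cells PSMG4 was called lower, at -0.29, adjusted p = 0.0251, while PSMG3 was at -0.20, adjusted p = 0.068 and PSMG2 at -0.05, adjusted p = 0.565.

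Of 8 tested other subunits and factors bound to the proteasome, 2 were called higher and 3 lower in K148R against parental cells (25% and 37.5%, against 37.8% and 37.3% of all tested genes). In K148Q against parental cells 1 was higher and 4 lower (12.5% and 50%, against 27% and 26.3%). Leaving out the third K148Q library gave 4 higher and 4 lower in K148R cells and 2 higher and 4 lower in K148Q cells. AKIRIN2, which carries proteasomes into the nucleus, averaged 56.3 ± 0.464 CPM in K148R cells, 28.0 ± 0.652 CPM in K148Q cells and 26.1 ± 1.03 CPM in parental cells, higher in K148R cells at 1.11, adjusted p = 1.91e-09 and at 0.10, adjusted p = 0.248 in K148Q cells. The proteasome-bound deubiquitinases were lower in K148R cells, USP14 at -0.81, adjusted p = 3.40e-07 and UCHL5 at -1.54, adjusted p = 3.51e-06. In K148Q cells SHFM1, the smallest lid subunit, was at -0.20, adjusted p = 0.0102, TXNL1 at -0.34, adjusted p = 0.0128 and the ubiquitin ligase UBE3C at 0.19, adjusted p = 0.0103. The ubiquitin receptor ADRM1 was at 0.16, adjusted p = 0.0517 in K148R and 0.17, adjusted p = 0.058 in K148Q cells.

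Receptors that shuttle ubiquitinated proteins to the cap went both ways, with 2 of 6 higher and 3 lower in K148R against parental cells (33.3% and 50%, against 37.8% and 37.3% of all tested genes). In K148Q against parental cells 3 were higher and 1 lower (50% and 16.7%, against 27% and 26.3%). In the fit without the third K148Q library, 3 were higher and 3 lower in K148R cells. UBQLN1 averaged 208 ± 6.53 CPM in K148R cells, 98.2 ± 10.5 CPM in K148Q cells and 99.7 ± 3.48 CPM in parental cells, higher in K148R cells at 1.06, adjusted p = 3.51e-09 and at -0.02, adjusted p = 0.815 in K148Q cells. DDI2, the protease that cuts NRF1, was higher in K148R cells, at 0.69, adjusted p = 0.000104. RAD23B was lower and UBQLN4 higher in K148Q cells, at -0.28, adjusted p = 0.0198 and 0.33, adjusted p = 0.00183. DDI1 had 0 counts in all libraries. Of 6 ubiquitin and E1 enzyme genes, 3 were higher and 2 lower in K148R against parental cells (50% and 33.3%, against 37.8% and 37.3% of all tested genes). In K148Q against parental cells 1 was higher and 3 lower (16.7% and 50%, against 27% and 26.3%). These counts became 4 higher and 2 lower for K148R and 3 higher and 3 lower for K148Q without the third K148Q library. UBB, a polyubiquitin gene, was higher in K148R cells, at 0.49, adjusted p = 8.57e-06. The E1 enzyme gene UBA6 was lower in both, at -1.34, adjusted p = 9.64e-05 for K148R and -0.85, adjusted p = 0.00369 for K148Q. RPS27A, which encodes ubiquitin fused to a ribosomal protein, was lower in K148Q cells, at -0.40, adjusted p = 3.53e-05.

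NFE2L1 encodes NRF1, the factor that raises proteasome genes when proteasome activity is low, and it rose in both genotypes while most members fell or were not called. It was at 234, 238 and 232 CPM in K148R, 209, 198 and 181 CPM in K148Q and 119.6, 114 and 114 CPM in parental libraries. The groups did not overlap, at 1.01, SE 0.0589, adjusted p = 7.15e-10 for K148R and 0.76, SE 0.0589, adjusted p = 9.38e-08 for K148Q against parental cells. Of the 9 tested genes for NRF1 and its activation, 4 were higher and 1 lower in K148R against parental cells (44.4% and 11.1%, against 37.8% and 37.3% of all tested genes). In K148Q against parental cells 3 were higher and 1 lower (33.3% and 11.1%, against 27% and 26.3%). These counts became 4 higher and 2 lower for K148R and 5 higher and 1 lower for K148Q without the third K148Q library. SYVN1, the ubiquitin ligase that turns NRF1 over at the endoplasmic reticulum, averaged 97.1 ± 2.88 CPM in K148R cells, 51.6 ± 5.41 CPM in K148Q cells and 40.4 ± 1.07 CPM in parental cells, at 1.27, adjusted p = 1.34e-09 for K148R against parental cells. VCP, the ATPase that pulls NRF1 out of the membrane, was at 0.17, adjusted p = 0.0113 in K148R and 0.13, adjusted p = 0.0604 in K148Q cells. The partner gene MAFG was higher in K148Q cells, at 0.35, adjusted p = 0.000203. OGT, which modifies NRF1 with sugar, was lower there, at -0.62, adjusted p = 3.84e-07. NGLY1, which removes sugars from NRF1, was at -0.10, adjusted p = 0.23 in K148R cells. The list's median log2 fold change was -0.016 in K148R and 0.092 in K148Q cells.

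Peptides cut by the immunoproteasome reach MHC class I through the TAP transporter, and its genes lie beside PSMB8 and PSMB9 on chromosome 6. The annotated RefSeq starts of PSMB9, on the + strand, and of TAP1, on the - strand, are 488 bases apart, or 1431 bases for the other annotated start of TAP1, and they point away from each other. The 2 genes moved in opposite directions. TAP1 was at 49.7, 49.4 and 44.7 CPM in K148R, 41.5, 41.2 and 30.4 CPM in K148Q and 24.1, 23.4 and 24.1 CPM in parental libraries, higher in K148R and in K148Q than in parental cells at 1.01, SE 0.107, adjusted p = 6.91e-07 and 0.66, SE 0.109, adjusted p = 0.000151, whereas PSMB9 was lower in both. TAP2, the partner subunit, named here after its values were seen as the neighbour of PSMB8, was at 48.3, 46.5 and 45.6 CPM in K148R, 83.0, 83.9 and 75.8 CPM in K148Q and 60.3, 63.6 and 58.3 CPM in parental libraries. It was lower in K148R cells, at -0.37, adjusted p = 0.000164, and higher in K148Q cells, at 0.41, adjusted p = 0.000129.

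**Figure D5:**
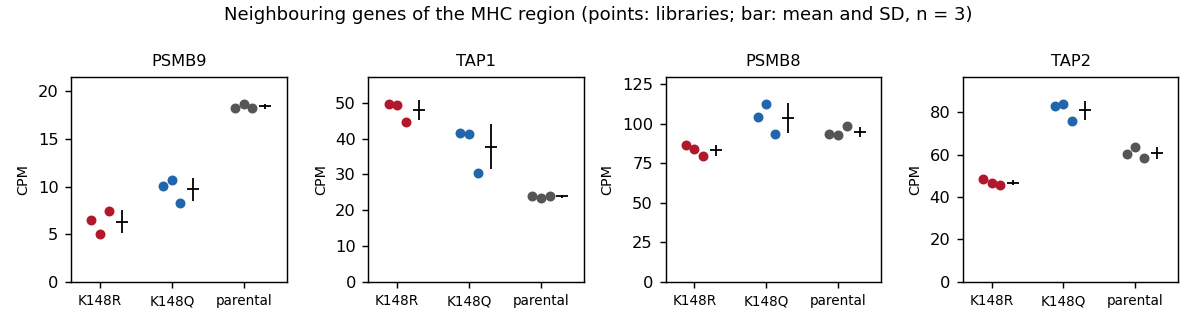
Level in CPM of the neighbouring genes PSMB9, TAP1, PSMB8 and TAP2 in each library of K148R, K148Q and parental cells, with the mean and SD of each group. PSMB9 is lower and TAP1 higher in all 6 libraries with a substitution than in the 3 parental ones, and TAP2 is lowest in K148R and highest in K148Q libraries.

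Over the 7 genes for peptide supply to MHC class I, 4 were higher and 2 lower than in parental cells in K148R cells (57.1% and 28.6%, against 37.8% and 37.3% of all tested genes). In K148Q cells 4 were higher and 2 lower (57.1% and 28.6%, against 27% and 26.3%), or 5 higher and 2 lower there without the third K148Q library. B2M, the invariant chain of MHC class I, was higher in K148R cells, at 1.00, adjusted p = 2.31e-09. ERAP2, a peptide-trimming enzyme, was lower in both, at -1.98, adjusted p = 3.78e-09 for K148R and -1.62, adjusted p = 1.20e-07 for K148Q, while TAPBP and ERAP1 were higher in K148Q cells, at 0.73, adjusted p = 1.12e-07 and 0.60, adjusted p = 6.47e-06. NLRC5, the activator of MHC class I genes, was at 0.04, adjusted p = 0.69 in K148R and 0.14, adjusted p = 0.148 in K148Q cells.

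Most interferon signal transducers rose in both genotypes. Of 10 tested, 8 were higher and 1 lower in K148R against parental cells (80% and 10%, against 37.8% and 37.3% of all tested genes), with a median log2 fold change of 0.869. In K148Q against parental cells 7 were higher and 3 lower (70% and 30%, against 27% and 26.3%), with a median of 0.405. Without the third K148Q library, 7 were higher and 2 lower in K148Q cells. STAT2 was at 225, 226 and 219 CPM in K148R, 68.2, 64.3 and 58.2 CPM in K148Q and 55.7, 47.6 and 49.0 CPM in parental libraries, with no overlap between the groups. IRF9 and STAT2, subunits of the complex ISGF3, were higher in K148R cells at 2.68, adjusted p = 4.46e-12 and 2.14, adjusted p = 2.11e-12, as was IRF7 at 2.07, adjusted p = 3.10e-11. In K148Q cells JAK1 was at 0.49, adjusted p = 2.94e-06 and IRF8, a myeloid factor, at -0.45, adjusted p = 1.25e-06. IRF2 was not called in K148R cells, at 0.08, adjusted p = 0.373. The 1 transducer lower in K148R cells was IRF1, an interferon-induced transcription factor, named after its values were seen. It was at -0.38, adjusted p = 0.00163 for K148R and -0.26, adjusted p = 0.0243 for K148Q against parental cells. The part of IRF1 in the changes of the members was not tested. The K148Q call of IRF1 was lost without the third K148Q library, at -0.16, adjusted p = 0.0529. In the K148R libraries, in which 8 transducer genes were higher, PSMB9, PSMB8, PSME1 and PSME2 were lower and PSMB10 was higher than in parental cells. The summed level of the 8 myeloid markers was also highest in K148R and lowest in parental libraries. Without LYZ, the sum of the other 7 was lowest in K148R and highest in K148Q libraries. FLT3, the largest of those 7, averaged 301 CPM in K148R, 676 CPM in K148Q and 652 CPM in parental cells. CSF1R went the other way, at 168 CPM in K148R, 67.6 CPM in K148Q and 40.2 CPM in parental cells. The part of these markers in the differences was not tested.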

How the data were processed

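RNA sequencing of 9 libraries, 3 each of K148R, K148Q and parental MV411 cells, was analysed. The authors deposited raw read counts per gene symbol and library, without normalisation. Tools listed in the submitters' processing notes are HISAT2 2.0.5, featureCounts 1.5.2 and FastQC 0.11.7, with GRCh38 as the build. The annotation, the strand of counting and whether poly(A) RNA was selected were not given in the sources used here. Per the labels' protocols, total RNA was taken with the Zymo Quick-RNA Miniprep kit. Totals were 13747087 to 18938391 counts, and limits from 0 counts cover counting error only.

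Genes kept by filterByExpr (12845) were scaled with TMM and fitted with edgeR 4.0.16 in R 4.3.3, with a term per genotype, and tested by quasi-likelihood with Benjamini-Hochberg adjustment over all of them at 0.05. SE is the size of the log2 fold change over the square root of F. Per-length levels used exons of GENCODE v29, and promoters came from RefSeq GRCh38.p14, found for 39 of 44 members. Alternatives were DESeq2 1.42.0, limma-voom (limma 3.58.1), other scalings and filters, fits of 2 groups, a replicate block and leaving out each library.

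The members and lists were chosen with earlier results of these data known. Values are given for every catalytic subunit, activator and PI31, for the called member with the largest change in each other subgroup and comparison, and for the 3 genes with the smallest p and up to 2 not called in each pathway list. PSMA6, PSMA7, PSMB3, PSMB4, PSMC4, PSMD2, PSMD3, PSMD5, PSMD9 and PSMD11 were described after their values were seen. Some genes that these rules name are not reported here, though they count in their lists.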

Additional observations from a re-analysis of the deposited data

How the results depend on the processing

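Across 18 alternative settings, 30 of 36 calls of proteasome genes were kept in every setting for K148R against parental cells, 16 of 21 for K148Q against parental cells and 33 of 36 for K148R against K148Q cells. No scaling moved the median of all genes by more than 0.06 on the log2 scale. Of 2574 recomputed values of named genes, 2434 kept their direction and their side of the threshold, 65 lost their call, 43 gained one and 32 changed sign. Scaling by library totals alone gave 5 higher members in K148Q against parental cells, against 3, and medians of -0.466 for K148R against parental cells and -0.374 for K148R against K148Q cells. With no filter on low counts the median for K148R against parental cells was -0.444. Leaving out 1 library gave 2 to 9 higher members for K148Q and 3 to 6 for K148R against parental cells. Medians were then -0.078 to -0.048 and -0.444 to -0.408. The difference from parental cells in the log2 ratio of immune to constitutive subunits ranged from 0.129 to 0.223 for K148Q and from 0.219 to 0.296 for K148R. The causes were not tested.

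The difference between groups in the log2 ratio of immune to constitutive subunits depended on the pair used. Values are for PSMB8 to PSMB5, PSMB9 to PSMB6 and PSMB10 to PSMB7 in turn. The differences were 0.651, -1.406 and 0.454 for K148R against parental cells and 0.048, -0.959 and 0.52 for K148Q against parental cells. For K148R against K148Q cells they were 0.603, -0.446 and -0.065. The summed log2 ratio differed by 0.252, 0.163 and 0.089 in these 3 comparisons.

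Genes that changed sign were, with 1 exception, uncalled on both sides. For K148Q against parental cells, upper quartile scaling gave PSMB6 -0.013, PSME3 -0.019, PSME4 -0.032, PSMC3 -0.011 and PSMD11 -0.016, and PSMD9 was 0, 0.006, 0.004 and 0.005 with RLE factors, library totals, DESeq2 and fits of 2 groups. For K148R against parental cells, NLRC5 was -0.01 with library totals. For K148R against K148Q cells, PSMB1 was 0.021 with upper quartile scaling, and PSMB10 was -0.041, -0.008 and -0.011 with library totals, no filter and fits of 2 groups. Leaving out 1 library gave PSMD12 -0.204 to 0.068, PSME4 -0.024 to 0.041, PSMB6 -0.005 to 0.106, UBQLN1 -0.104 to 0.029, PSMC3 -0.018 to 0.107, PSMD11 -0.008 to 0.066, PSMA7 -0.089 to 0.015 and PSMD9 -0.086 to 0.08 for K148Q against parental cells, NLRC5 -0.007 to 0.084 for K148R against parental cells, and PSMB1 -0.055 to 0.008 and PSMB10 -0.133 to 0.093 for K148R against K148Q cells. The exception was PSMB10 without K148Q replicate 3, called lower in K148R than in K148Q cells (adjusted p = 0.0212).

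Replicate numbers are shared by the groups. Deviations of same-numbered libraries from their group means correlated at -0.024 to 0.269, highest between the third K148R and K148Q libraries, and not all pairs were above 0.1, so the numbers were not taken to pair the libraries. With a replicate block, 5 members were higher and 31 lower in K148R against parental cells, 4 higher and 18 lower in K148Q against parental cells, and 5 higher and 31 lower in K148R against K148Q cells.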
